A study of Mus musculus with 6 samples.

Results

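Bmi1, Hopx, Lrig1, Tert, Mex3a, Msi1 and Prox1 have each been proposed to mark reserve stem cells of the intestinal crypt. These 7 genes were taken by symbol from the 55487 genes of the deposited table and followed in whole small intestine of mice from which Lgr5-positive cells were ablated. The tested group was Lgr5-2A-DTR mice (DTR, 3 libraries), in which a diphtheria toxin receptor is linked to the Lgr5 gene through a 2A peptide, so that cells that transcribe Lgr5 become sensitive to the toxin. The comparison group was wild-type mice (WT, 3 libraries). DTR and WT mice alike were adult C57BL/6, past 8 weeks of age, and were given diphtheria toxin at 20 µg per kg on each of 4 days, with tissue taken 6 h after the final dose. The toxin was therefore common to all libraries, and the receptor was carried by DTR mice alone.

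The crypt base holds rapidly cycling stem cells that carry Lgr5, a receptor that strengthens Wnt signalling. Slower cycling cells higher in the crypt, around the +4 position above the base, have been proposed as a reserve that can restore the crypt base after its cells are lost, and the genes described here served to find or trace such cells in mice. Transcripts of several of these markers have also been found in Lgr5-positive cells and in other cell types. In RNA from a whole tissue a lower level can come from fewer cells of a type or from less RNA per cell, and these cannot be told apart.

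None of the 7 markers passed the genome-wide test between DTR and WT (limma, Benjamini-Hochberg adjusted p of 0.05), against 18.3% of the 15563 tested genes (9.54% higher and 8.74% lower in DTR). In the same test 3 of the 7, Bmi1, Lrig1 and Msi1, had an unadjusted p under 0.05, as did 38.8% of tested genes, and limma's voom on the recovered reads also called 0 of the 7. The markers did not go one way. The mean of Bmi1, Lrig1, Msi1 and Mex3a was higher in DTR, and that of Hopx, Tert and Prox1 was lower. The groups did not overlap for 4 of the 7: every DTR library lay above every WT library for Bmi1, Lrig1 and Msi1, and below for Prox1. Among the 5 markers that passed the expression filter, a mean log2 RPKM above -2, the groups did not overlap for 3, where the groups of 47.7% of all tested genes did not overlap. RPKM is the read number of a gene divided by its exon length and by the scaled library total, so levels of different genes can be compared. Mex3a and Prox1 lay below the filter and were fitted with all 31972 genes that had reads, of which 7.98% passed and 31.5% had groups that did not overlap.

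The libraries held between 61404574 and 76596766 reads in genes. Lgr5 had 22, 0 and 34 reads in DTR replicates 1, 2 and 3, against 315, 254 and 229 reads in WT replicates 1, 2 and 3 (0.0289 ± 0.0269 RPKM in DTR and 0.371 ± 0.0669 RPKM in WT, SD, n = 3 each), a loss in the direction of the labels. Its log2 change of -5.40 (SE 1.79) had a limma adjusted p of 0.112 among all genes with reads and of 0.0210 with voom. The size of that change depends on the prior count, since DTR replicate 2 had 0 reads: without that library it was -3.11 (adjusted p = 0.0389), and it was -6.71 without DTR replicate 3. Xist, which is transcribed from the inactive X chromosome of female cells, averaged 20.7 ± 0.520 RPKM in DTR and 0.0212 ± 0.00668 RPKM in WT (SD, n = 3 each), while Uty, Kdm5d, Eif2s3y and Ddx3y of the Y chromosome had 0 reads in every DTR library and 1085 to 4722 reads in the WT libraries. Genotype and this sex pattern cannot be told apart in any comparison below. The defining markers of small intestinal enterocytes were abundant, with a summed RPKM of 10 of them at 20520 to 36660 in DTR and 22860 to 27040 in WT. Across tested genes, Pearson's r was 0.920 to 0.939 within DTR, 0.970 to 0.973 within WT and 0.839 to 0.928 between groups. DTR replicate 1 correlated about as closely with the WT libraries (median r = 0.928) as with the other DTR libraries (median r = 0.929), so results that rest on it are also given without it.

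**Figure D1:**
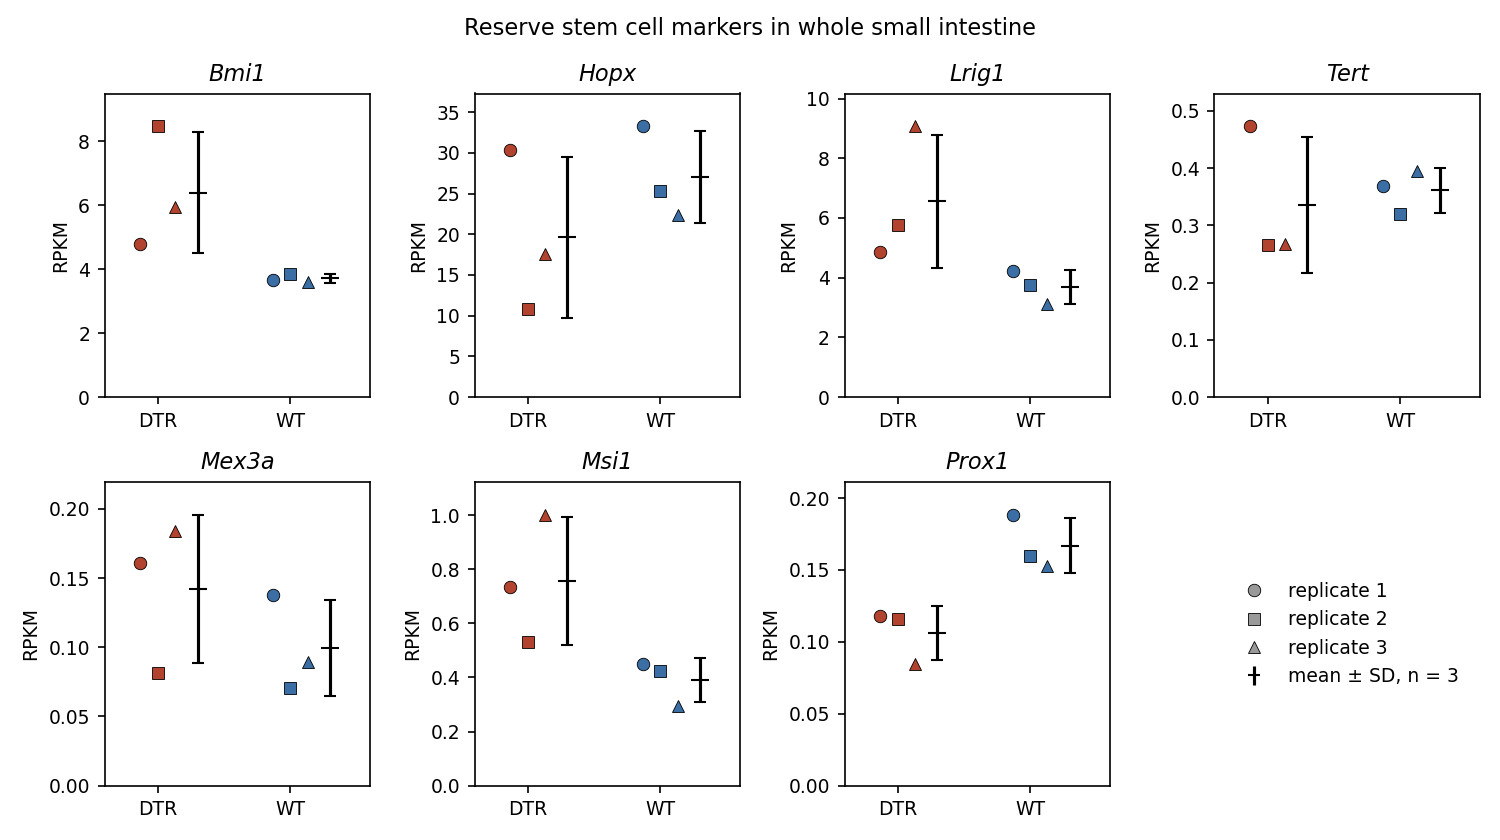
Level of each reserve marker in RPKM (vertical axes, each starting at 0) in the DTR libraries and the WT libraries; symbols are replicates and black bars the mean ± SD of 3 libraries. DTR and WT points do not overlap for Bmi1, Lrig1, Msi1 and Prox1, and the SD is larger in DTR than in WT for all but Prox1.

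Levels per gene length spanned a wide range and kept nearly the same order in both groups. Hopx was the most abundant marker, at 19.6 ± 9.88 RPKM in DTR and 27.0 ± 5.63 RPKM in WT (SD, n = 3 each). Lrig1 and Bmi1 came next, and in each group the ranges of these neighbours in the order overlapped. In DTR, Lrig1 averaged 6.56 ± 2.22 RPKM and Bmi1 6.40 ± 1.89 RPKM, and in WT, Bmi1 averaged 3.71 ± 0.127 RPKM and Lrig1 3.70 ± 0.570 RPKM. Msi1 and Tert stood below 1.1 RPKM in every library. They were separated in DTR, at 0.756 ± 0.236 RPKM for Msi1 and 0.336 ± 0.119 RPKM for Tert, and overlapped in WT, at 0.390 ± 0.0829 and 0.361 ± 0.0387 RPKM. Mex3a and Prox1 were lowest and changed places: in DTR, Mex3a averaged 0.142 ± 0.0537 RPKM and Prox1 0.106 ± 0.0190 RPKM with overlapping ranges, and in WT, Prox1 averaged 0.167 ± 0.0191 RPKM and lay above Mex3a at 0.0993 ± 0.0348 RPKM in every library.

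Bmi1 encodes a RING finger protein of Polycomb repressive complex 1, which silences genes through ubiquitination of histone H2A. Lineage tracing from Bmi1 marked cells around the +4 position. The gene (ENSMUSG00000026739.13, mm10, chromosome 2, 18677018 to 18686629, plus strand) is protein-coding with 3974 exon bases. It stood at 4.78, 8.48 and 5.94 RPKM in DTR replicates 1, 2 and 3 (1225, 2075 and 1466 reads), against 3.67, 3.86 and 3.62 RPKM in WT replicates 1, 2 and 3 (1078, 938 and 1090 reads). All 3 DTR libraries lay above a tight cluster of WT libraries, and DTR replicate 2 was the highest. The mean RPKM was 1.72 times as high in DTR, and the log2 change was 0.74 (SE 0.22, 95% interval 0.21 to 1.28; limma adjusted p = 0.0622). The exact two-sided permutation test of the 6 libraries gave p = 0.1, the smallest value that 3 against 3 can give. Without DTR replicate 1 the log2 change was 0.93 and passed (limma adjusted p = 0.0167), in a fit in which 36.0% of all tested genes passed; it also passed with array weights (adjusted p = 0.0221), where 31.2% did. Across 17 other settings the change stayed positive, between 0.52 and 0.93.

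The other subunits of Polycomb repressive complex 1 were also tested. Of 20, 2 rose and none fell, where 9.54% of all tested genes rose and 8.74% fell; without DTR replicate 1 it was 5 and 4, in the fit that called 36.0% of all genes. The 20 had a median log2 change of 0.058 against 0.031 over all tested genes. Cbx7, which reads trimethylated lysine 27 of histone H3, rose, at 4.68 ± 0.202 RPKM in DTR and 2.51 ± 0.334 RPKM in WT (SD, n = 3 each). Its log2 change was 0.91 (SE 0.16; limma adjusted p = 0.0188). Bcor, a corepressor of a variant complex, rose by a log2 change of 1.08 (SE 0.27; limma adjusted p = 0.0408). Neither passed without WT replicate 1, 2 or 3 (limma adjusted p of 0.0662 to 0.0873 for Cbx7 and 0.121 to 0.134 for Bcor), nor did Bcor without DTR replicate 2 (0.0711) or 3 (0.0737). Pcgf2, the closest relative of Bmi1, stood at 4.51, 4.75 and 5.74 RPKM in DTR replicates 1, 2 and 3, against 3.45, 3.57 and 2.87 RPKM in WT replicates 1, 2 and 3. These groups did not overlap, and the log2 change of 0.60 did not pass (limma adjusted p = 0.0517), although it did in 7 of 17 other settings, among them without DTR replicate 1 (0.0315). Within a library, log2 Bmi1 minus log2 Pcgf2 was 0.08, 0.84 and 0.05 in DTR replicates 1, 2 and 3, and 0.09, 0.11 and 0.34 in WT replicates 1, 2 and 3, so the groups overlapped on this ratio. Cdkn2a, which encodes the cell cycle inhibitors that Bmi1 is known to repress, was barely detected, with 16, 6 and 6 reads in DTR replicates 1, 2 and 3, and 1, 0 and 9 reads in WT replicates 1, 2 and 3 (log2 change 2.78, SE 1.30; limma adjusted p = 0.233 among all genes with reads). With so few reads the log2 change was 1.57 without WT replicate 2 and 4.08 without WT replicate 3. Its tested relatives Cdkn2b, Cdkn2c and Cdkn2d had log2 changes of -0.20, 0.12 and -0.26, and none passed in limma. The sign of Cdkn2b turned with array weights (0.16).

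Lrig1 is a transmembrane protein that restrains ErbB receptors and promotes their degradation, and it marks a stem cell population that is largely quiescent. The gene (ENSMUSG00000030029.14, mm10, chromosome 6, 94604529 to 94700158, minus strand) shares 144 of its 5585 exon bases with Slc25a26 on the opposite strand. Lrig1 stood at 4.86, 5.75 and 9.08 RPKM in DTR replicates 1, 2 and 3 (1749, 1978 and 3150 reads), against 4.24, 3.75 and 3.10 RPKM in WT replicates 1, 2 and 3 (1751, 1280 and 1314 reads). DTR replicate 3 was the highest, and DTR replicate 1 lay just above WT replicate 1. The mean RPKM was 1.78 times as high in DTR, with a log2 change of 0.79 (SE 0.26, 95% interval 0.16 to 1.42; limma adjusted p = 0.0797; exact two-sided permutation p = 0.1). Lrig1 passed without DTR replicate 1 (log2 change 0.98; limma adjusted p = 0.0340) and with array weights (adjusted p = 0.0329). In those fits 36.0% and 31.2% of all tested genes passed. Slc25a26 differed by -0.16 (SE 0.24; limma adjusted p = 0.637).

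Among the receptors that Lrig1 restrains, Egfr stood at 1.54, 6.85 and 3.75 RPKM in DTR replicates 1, 2 and 3, against 1.47, 1.51 and 1.35 RPKM in WT replicates 1, 2 and 3. The highest Egfr was thus in DTR replicate 2, whereas the highest Lrig1 was in DTR replicate 3. Egfr did not pass (log2 change 1.24, SE 0.51; limma adjusted p = 0.128), although it did without DTR replicate 1 (log2 change 1.81; adjusted p = 0.00965) and with array weights (adjusted p = 0.0325). In those fits 36.0% and 31.2% of all tested genes passed. Without DTR replicate 2, which had the highest Egfr, the log2 change was 0.73 (adjusted p = 0.226). Erbb2 (-0.21), Erbb3 (0.20) and the hepatocyte growth factor receptor Met (0.069) did not pass either, and the sign of Erbb3 and Met turned without DTR replicate 2 (-0.36 and -0.0074), as did that of Erbb3 with array weights (-0.0030) and that of Met without WT replicate 2 (-0.0015). Erbb4 had 0 reads in every library, so its level may be anything up to 0.00397 RPKM (3 reads in the shallowest library). The relatives Lrig2 (log2 change 0.11; limma adjusted p = 0.698; -0.025 without DTR replicate 3) and Lrig3 (0.41; adjusted p = 0.163) did not pass. Within a library, log2 Lrig1 minus log2 Lrig2 was 1.40, 1.64 and 1.91 in DTR replicates 1, 2 and 3, and 1.29, 1.02 and 0.60 in WT replicates 1, 2 and 3, with every DTR library higher. The same difference from Lrig3 was 0.57, 0.76 and 1.02 in DTR replicates 1, 2 and 3, and 0.60, 0.64 and -0.026 in WT replicates 1, 2 and 3, so the groups overlapped on it.

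Bmi1 and Lrig1 had the most reads among the markers whose groups did not overlap, and their promoters are shown for that reason. Promoter sequences of 6 of the 7 markers are in the RefSeq-derived table (build GRCm38.p6, which is mm10), each with 250 bases before and 50 after the start. They were searched on both strands for CTTTGAT (TCF/LEF), a palindromic glucocorticoid receptor element, CACGTG (Myc E-box), TTTNNCGC (E2F) and GGGCGG (Sp1/Klf), which occur in 3.73%, 0.475%, 7.15%, 5.17% and 35.7% of 32851 promoters. Capitals mark the matches, and neighbouring matches can overlap. The first sequence is Bmi1 at chr2:18676768-18677067 (plus strand) and the next is Lrig1 at chr6:94700096-94700395 (minus strand), both 5′ to 3′.
Bmi1: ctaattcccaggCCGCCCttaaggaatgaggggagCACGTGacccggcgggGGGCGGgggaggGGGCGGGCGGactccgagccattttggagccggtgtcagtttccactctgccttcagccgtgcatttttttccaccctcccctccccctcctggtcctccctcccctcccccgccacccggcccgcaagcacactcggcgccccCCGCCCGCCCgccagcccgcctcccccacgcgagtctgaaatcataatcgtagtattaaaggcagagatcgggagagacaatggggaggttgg
Lrig1: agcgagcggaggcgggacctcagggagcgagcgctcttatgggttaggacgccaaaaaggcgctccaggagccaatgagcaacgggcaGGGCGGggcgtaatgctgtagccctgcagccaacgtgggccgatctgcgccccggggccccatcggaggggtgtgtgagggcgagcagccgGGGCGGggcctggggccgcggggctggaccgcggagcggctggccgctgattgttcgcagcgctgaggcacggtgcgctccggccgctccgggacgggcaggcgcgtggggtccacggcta
The Bmi1 promoter held 6 GGGCGG matches and 1 CACGTG match, with 66.3% G and C, and that of Lrig1 held 2 GGGCGG matches with 73.0% G and C, against a median of 52.7% over all promoters. Neither held a TCF/LEF or glucocorticoid receptor match, which says only that those letters are not in these windows.

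Msi1 encodes Musashi, an RNA-binding protein that represses translation of the Notch inhibitor Numb and was used as an early marker of crypt stem cells. The gene (ENSMUSG00000054256.11, mm10, chromosome 5, 115429599 to 115455698, plus strand) stood at 0.735, 0.532 and 1.00 RPKM in DTR replicates 1, 2 and 3 (275, 190 and 361 reads), against 0.450, 0.426 and 0.296 RPKM in WT replicates 1, 2 and 3 (193, 151 and 130 reads). Every DTR library lay above every WT library, with replicate 3 highest in DTR and lowest in WT. The mean RPKM was 1.94 times as high in DTR, with a log2 change of 0.93 (SE 0.34, 95% interval 0.11 to 1.74). It did not pass in limma (adjusted p = 0.0964) or in any of 16 other settings (adjusted p of 0.0609 to 0.255), and the exact permutation p was 0.1. Its relative Msi2, which is expressed more widely, differed by 0.37 (SE 0.18; limma adjusted p = 0.180). Within a library, log2 Msi1 minus log2 Msi2 was -1.66, -2.22 and -1.67 in DTR replicates 1, 2 and 3, and -2.23, -2.34 and -2.64 in WT replicates 1, 2 and 3.

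Mex3a is an RNA-binding ubiquitin ligase that marks a slowly dividing subset of crypt base cells. The gene (ENSMUSG00000074480.4, mm10, chromosome 3, 88532395 to 88541396, plus strand) was scarce, at 0.161, 0.0815 and 0.184 RPKM in DTR replicates 1, 2 and 3 (60, 29 and 66 reads), against 0.138, 0.0707 and 0.0890 RPKM in WT replicates 1, 2 and 3 (59, 25 and 39 reads). The groups overlapped, and replicate 2 was the lowest library in each. The log2 change of 0.49 (SE 0.60, 95% interval -0.90 to 1.88; limma adjusted p = 0.614; exact two-sided permutation p = 0.3) has an interval with values well above and well below 0 at this depth. Of the relatives, Mex3c rose, at 24.9 ± 6.37 RPKM in DTR and 13.5 ± 1.08 RPKM in WT (SD, n = 3 each). Its log2 change was 0.85 (SE 0.21; limma adjusted p = 0.0418), and it passed in 9 of 17 other settings. It did not pass without WT replicate 1, 2 or 3 (limma adjusted p of 0.120 to 0.139) or without DTR replicate 2 (0.0802) or 3 (0.109). Mex3b (-0.088; limma adjusted p = 0.906), whose sign turned in 4 other settings, and Mex3d (0.42; adjusted p = 0.309) did not pass.

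Hopx is an atypical homeodomain protein that does not bind DNA itself, and tracing from Hopx marked slowly cycling cells at the +4 position. The gene (ENSMUSG00000059325.14, mm10, chromosome 5, 77086988 to 77115121, minus strand) stood at 30.3, 10.9 and 17.6 RPKM in DTR replicates 1, 2 and 3 (2965, 1015 and 1658 reads), against 33.3, 25.3 and 22.4 RPKM in WT replicates 1, 2 and 3 (3732, 2348 and 2576 reads). DTR replicate 1 lay within the WT range and the other 2 DTR libraries below it. The log2 change was -0.57 (SE 0.37, 95% interval -1.46 to 0.33) and did not pass (limma adjusted p = 0.293; exact two-sided permutation p = 0.3). Without DTR replicate 1 it was -0.94 and passed (limma adjusted p = 0.0474), in a fit in which 36.0% of all tested genes passed. Without DTR replicate 2 it was -0.20 (limma adjusted p = 0.622), so the size of the difference depended on which DTR library was left out.

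The antisense gene Hopxos shares 412 of the 1516 exon bases of Hopx, and since the strand setting of the counting is not given, reads there cannot be assigned to either strand. Hopxos had 58, 16 and 16 reads in DTR replicates 1, 2 and 3, against 102, 63 and 86 reads in WT replicates 1, 2 and 3. Its DTR libraries all lay below WT (log2 change -1.57, SE 0.54; limma adjusted p = 0.0839), and it passed without DTR replicate 1 (-2.16; adjusted p = 0.00633) and with array weights (adjusted p = 0.0272). In those fits 36.0% and 31.2% of all tested genes passed. The mean log2 RPKM of Hopxos in DTR, -2.07, lay below the filter level of -2. Hopxos thus passed the filter only through WT, so its lower level is no separate support for that of Hopx. DTR replicate 1 was the DTR library closest to WT for Hopxos, as for Hopx. Hopx has a pair of starts in the RefSeq-derived promoter table, shown because the deposited value sums both. The sequences are at chr5:77115074-77115373 (upstream start) and chr5:77095218-77095517 (downstream start), both on the minus strand, with the same motifs in capitals.
Hopx upstream: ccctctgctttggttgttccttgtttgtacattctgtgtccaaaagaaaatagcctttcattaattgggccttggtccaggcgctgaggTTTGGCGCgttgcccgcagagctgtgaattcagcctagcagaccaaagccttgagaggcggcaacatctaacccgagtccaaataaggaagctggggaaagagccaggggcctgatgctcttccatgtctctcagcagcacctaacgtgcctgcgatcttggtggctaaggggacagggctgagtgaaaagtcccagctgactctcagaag
Hopx downstream: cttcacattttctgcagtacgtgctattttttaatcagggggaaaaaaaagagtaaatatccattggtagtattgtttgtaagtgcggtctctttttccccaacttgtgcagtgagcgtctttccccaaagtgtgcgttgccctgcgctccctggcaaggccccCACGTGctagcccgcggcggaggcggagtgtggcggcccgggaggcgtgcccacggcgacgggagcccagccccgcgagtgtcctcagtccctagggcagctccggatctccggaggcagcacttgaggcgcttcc
The upstream window held 1 E2F match at 53.0% G and C, and the downstream window 1 Myc E-box match at 59.0% G and C. Neither window held a GGGCGG match, in contrast to the promoters of Bmi1 and Lrig1.

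Tert encodes the reverse transcriptase of telomerase, and mouse Tert expression was used to mark a slowly cycling crypt population. The gene (ENSMUSG00000021611.9, mm10, chromosome 13, 73626911 to 73649843, plus strand) stood at 0.474, 0.267 and 0.267 RPKM in DTR replicates 1, 2 and 3 (175, 94 and 95 reads), against 0.368, 0.319 and 0.396 RPKM in WT replicates 1, 2 and 3 (156, 112 and 172 reads). DTR replicate 1 was above every WT library and the other 2 below every WT library, so the DTR libraries lay on either side of WT. The log2 change was -0.16 (SE 0.35, 95% interval -0.99 to 0.68; limma adjusted p = 0.762; exact two-sided permutation p = 0.6), and its sign turned with quantile normalization (0.051).

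Of 17 tested telomerase and telomere genes, 4 rose and none fell, where 9.54% of all tested genes rose and 8.74% fell. Without DTR replicate 1 the counts were 4 and 1, in the fit that called 36.0% of all genes. The 17 genes had a median log2 change of 0.13 with all libraries. Those that rose were Nhp2 (1.25, SE 0.19; limma adjusted p = 0.0154), Gar1 (1.22, SE 0.25; adjusted p = 0.0281), Nop10 (0.54, SE 0.13; adjusted p = 0.0412) and Naf1 (1.39, SE 0.37; adjusted p = 0.0481), the last named after its values were seen. Their products are core or assembly proteins of box H/ACA ribonucleoproteins, which guide pseudouridylation of ribosomal RNA as well as forming part of telomerase. Nhp2 stood at 47.3, 42.4 and 66.1 RPKM in DTR replicates 1, 2 and 3, against 22.1, 23.4 and 19.1 RPKM in WT replicates 1, 2 and 3, with no overlap. None of the 4 passed without WT replicate 1, 2 or 3 (limma adjusted p of 0.0648 to 0.151), and Gar1 without DTR replicate 3 (0.0565), Nop10 without DTR replicate 2 (0.0511) or 3 (0.0729) and Naf1 without DTR replicate 2 (0.0946) or 3 (0.124) did not pass either. None of the shelterin genes Terf1, Terf2, Terf2ip, Tinf2, Acd, Pot1a and Pot1b passed. The telomerase RNA gene Terc had 0 reads in every library, where 3 reads in the shallowest library would be 0.116 RPKM. How well these libraries capture this RNA was not tested, so 0 reads do not set its level in the tissue.

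Prox1 is a homeodomain transcription factor that in mouse intestine is found in enteroendocrine and tuft cells and in lymphatic endothelium, and Prox1-positive epithelial cells were shown to act as stem cells after injury. The gene (ENSMUSG00000010175.13, mm10, chromosome 1, 190118035 to 190170714, minus strand) stood at 0.118, 0.116 and 0.0844 RPKM in DTR replicates 1, 2 and 3 (64, 60 and 44 reads), against 0.189, 0.160 and 0.152 RPKM in WT replicates 1, 2 and 3 (117, 82 and 97 reads). All WT libraries lay above the highest DTR library. The mean RPKM was 1.57 times as high in WT as in DTR, and the log2 change was -0.66 (SE 0.48, 95% interval -1.79 to 0.47; limma adjusted p = 0.451 among all genes with reads; exact two-sided permutation p = 0.1). The change stayed negative in all 15 other settings, and none brought it past the threshold. The antisense gene Prox1os, which shares 133 exon bases with Prox1, had 2 reads in all, in WT replicate 1. The relative Prox2, also below the expression filter, stood at 0.405, 0.0535 and 0.0612 RPKM in DTR replicates 1, 2 and 3, against 0.278, 0.282 and 0.227 RPKM in WT replicates 1, 2 and 3, so that DTR libraries lay on either side of WT. Its log2 change of -1.24 did not pass (limma adjusted p = 0.385), was -2.17 and passed without DTR replicate 1 (adjusted p = 0.0178), and was -0.72 without DTR replicate 2. With DTR replicate 1 left out, 36.0% of the genes above the filter passed as well. Of the 7 relatives of the markers that were tested, 1 rose (Mex3c) and none fell, where 9.54% of all tested genes rose and 8.74% fell. Their median log2 change was 0.41, against 0.031 over all tested genes.

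**Figure D2:**
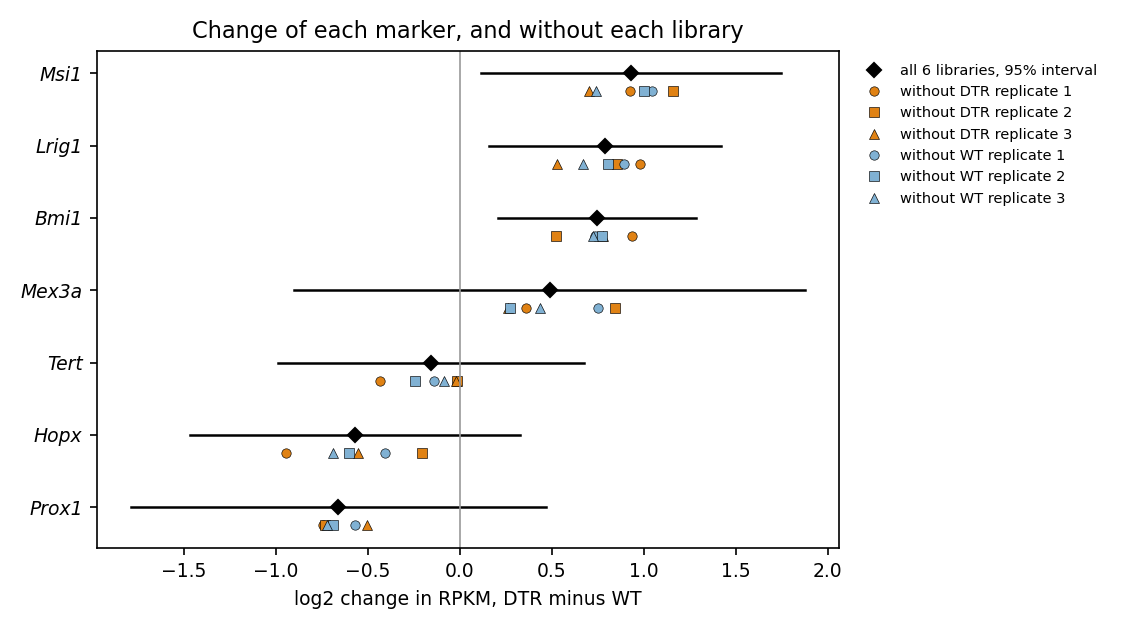
Log2 change in RPKM, DTR minus WT, for each reserve marker (horizontal axis): black diamonds and lines give the estimate from all 6 libraries with its 95% interval, and the smaller symbols the estimate without each library. The intervals of Bmi1, Lrig1 and Msi1 lie above 0 before adjustment over all genes, and the estimate for Hopx runs from -0.94 to -0.20 as libraries are left out.

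The DTR libraries did not share a single pattern over the markers. Relative to the WT range, 5 markers lay above, 1 below and 1 within it in DTR replicate 1, 3 above, 3 below and 1 within it in DTR replicate 2, and 4 above and 3 below it in DTR replicate 3. DTR replicate 2 had the highest Bmi1, at 1.19 above the WT mean on the log2 scale, and the lowest Hopx, at 1.29 below. DTR replicate 3 had the highest Lrig1, Msi1 and Mex3a, at 1.31, 1.38 and 0.94 above the WT mean, and the lowest Prox1.

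**Figure D3:**
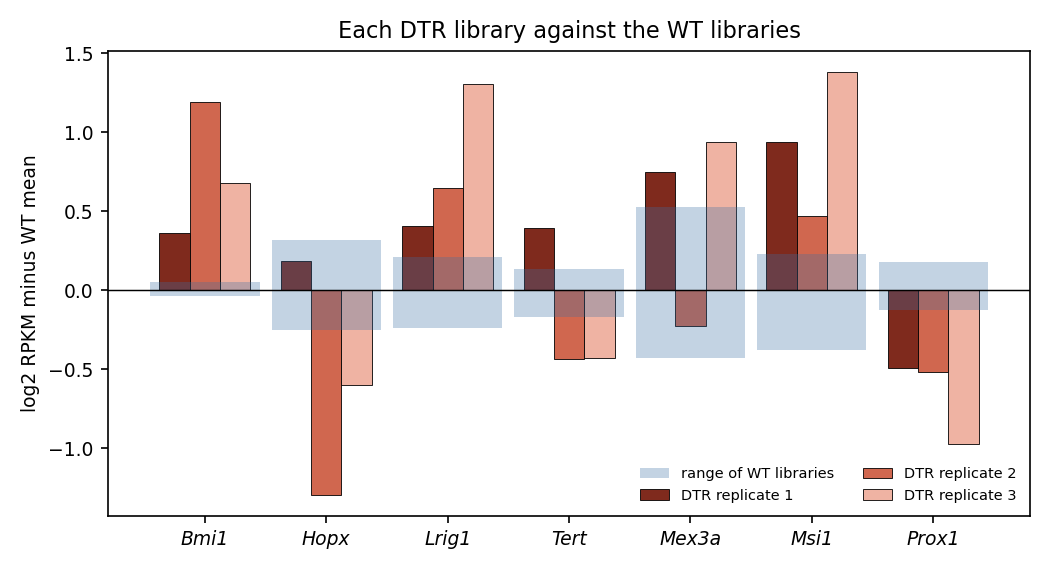
Log2 RPKM of each reserve marker in the 3 DTR libraries minus the WT mean (bars), with the range of the WT libraries as a blue band. Bars for Bmi1, Lrig1 and Msi1 all end above the band and those for Prox1 below it, while those for Hopx, Tert and Mex3a differ in sign between DTR libraries.

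The genes whose levels followed each marker most closely were found by Pearson's r over the 6 libraries, which share the difference between groups, so r is a description. For Msi1 they were Uhrf1 (r = 0.995), Knstrn (r = 0.995) and Gins2 (r = 0.993), of which Uhrf1 maintains DNA methylation at replication forks, Knstrn acts at the mitotic spindle and Gins2 belongs to the replicative helicase. For Lrig1 they were Nop58 (r = 0.996), Gapvd1 (r = 0.994) and Abcc1 (r = 0.994), and for Bmi1 Klhdc2 (r = 0.999), Rap1gap2 (r = 0.998) and Fkbp1a (r = 0.997). For Hopx they were Prpf6, Tnrc6b and Gba2 (r of 0.989 to 0.991), for Tert Xrn1, Fbxl20 and Insrr (r of 0.988 to 0.998), for Mex3a Adck2, Exosc3 and Srp72 (r of 0.9725 to 0.9813), and for Prox1 Slc35g2, Kctd12b and Filip1 (r of 0.993 to 0.997). Over 12859 genes compared, 1503 had an r above 0.9 with Bmi1, 645 with Msi1 and 89 with Tert, so that high values of r were common.

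Of 15 tested markers of the active crypt base, beside which reserve markers are usually read, 1 rose and 2 fell, a share near the 18.3% called over all tested genes, with a median log2 change of 0.069. The urea transporter gene Slc14a1 fell (-2.22, SE 0.35; limma adjusted p = 0.0163), as did the receptor gene Tnfrsf19 (-1.39, SE 0.36; adjusted p = 0.0440), while Igfbp4, which encodes a binding protein of insulin-like growth factors, rose (0.93, SE 0.23; adjusted p = 0.0391). None of the 3 passed without WT replicate 1, 2 or 3 (limma adjusted p of 0.0509 to 0.151), and Tnfrsf19 and Igfbp4 did not pass without DTR replicate 2 (0.0526 and 0.0527) or 3 (0.0665 and 0.0934). In DTR replicates 1, 2 and 3, Slc14a1 had 38, 42 and 39 reads and Tnfrsf19 had 78, 42 and 84 reads. Their mean log2 RPKM in DTR, -2.65 and -2.19, lay below the filter level of -2. Both genes passed the filter only through WT, so their fall is no separate support for a loss of crypt base markers. Of 12 genes of cell cycle arrest and quiescence, 2 rose and 1 fell, which is also near the 18.3% over all tested genes. The inhibitor gene Cdkn1a rose, at 105, 198 and 166 RPKM in DTR replicates 1, 2 and 3, against 43.2, 44.8 and 50.9 RPKM in WT replicates 1, 2 and 3 (log2 change 1.71, SE 0.24; limma adjusted p = 0.0132), and so did the forkhead factor gene Foxo1 (1.31, SE 0.27; adjusted p = 0.0281). The retinoblastoma gene Rb1 fell (-0.68, SE 0.14; adjusted p = 0.0288). Foxo1 and Rb1 did not pass without DTR replicate 3 (0.0755 and 0.0599). Of 12 proliferation markers 5 rose and none fell, where 9.54% of all tested genes rose and 8.74% fell. Those that rose were led by the sliding clamp gene Pcna (0.97, SE 0.11; limma adjusted p = 0.00737), Birc5 (0.83) and Ccnb2 (1.08). When WT replicate 1, 2 or 3 was left out, only 152 to 207 of all tested genes passed. None of Cdkn1a, Foxo1, Rb1, Pcna, Birc5 and Ccnb2 did so then (limma adjusted p of 0.0502 to 0.118).

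**Figure D4:**
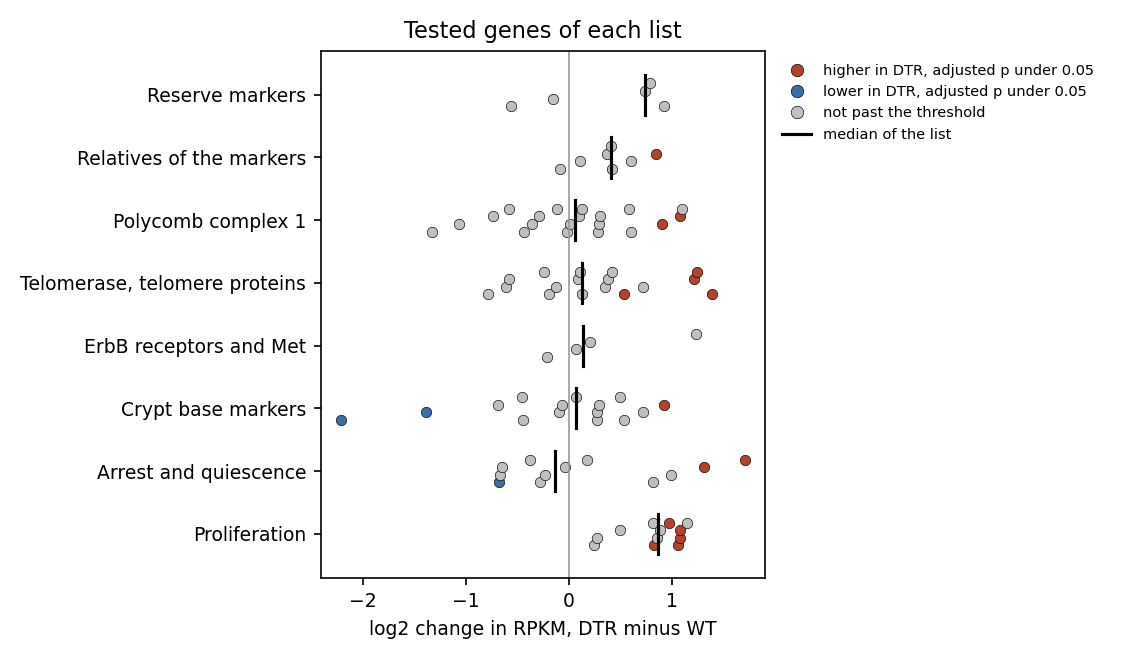
Log2 change in RPKM, DTR minus WT (horizontal axis), of every tested gene in the reserve markers and 7 related gene lists; colours give calls at a limma adjusted p of 0.05 over all tested genes and black bars the list medians. None of the 5 tested reserve markers is coloured, where 18.3% of all tested genes passed. Higher are 5 of 12 proliferation markers and 4 of 17 telomerase and telomere genes, where 9.54% of all tested genes were.

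Among marker lists of other cell types that can hold these transcripts, some differed between the groups and others did not. Their part in the values above was not tested. Over all tested genes 9.54% rose and 8.74% fell, the shares for each list count in this paragraph and the next. Summed RPKM of 12 proliferation markers was 133, 123 and 193 in DTR replicates 1, 2 and 3, against 83.7, 81.3 and 77.4 in WT replicates 1, 2 and 3. DTR replicate 3 was thus the highest for proliferation as for Lrig1, Msi1 and Mex3a. For Prox1, tuft markers summed to 2.29 to 3.21 RPKM in DTR and 31.96 to 32.91 RPKM in WT, and all 6 tested tuft markers fell, among them Sh2d6 (log2 change -5.63) and Rgs13 (-6.20). In DTR the mean log2 RPKM of Sh2d6 (-2.38) and Rgs13 (-4.60) lay below the filter level of -2. Rgs13 had 8, 2 and 4 reads in DTR replicates 1, 2 and 3. Both passed the filter only through WT, so the count of tested tuft markers that fell is partly set by the filter. Of 14 tested enteroendocrine markers 3 fell, Cck (-1.44), Sct (-1.06) and Gcg (-1.42), and none rose, with sums of 242 to 456 RPKM in DTR and 407 to 413 RPKM in WT. Cck, Sh2d6 and Rgs13 passed in every setting in which they were tested, whereas Gcg passed neither without WT replicate 1, 2 or 3 (limma adjusted p of 0.0737 to 0.0752) nor without DTR replicate 3 (0.0557), and Sct not without WT replicate 1 or 2 (0.0502 and 0.0515). Lymphatic markers went both ways, with Lyve1 (1.43) and Mmrn1 (1.31) rising and Ccl21a (-1.44) falling among 5 tested. None of these 3 passed without WT replicate 1, 2 or 3 (limma adjusted p of 0.0632 to 0.114), nor Mmrn1 without DTR replicate 2 (0.0622) or 3 (0.0850). Lymphatic markers summed to 9.87 to 14.2 RPKM in DTR and 11.3 to 11.8 RPKM in WT.

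For Hopx, which T cells can also express, T cell markers summed to 107, 68.8 and 137 RPKM in DTR replicates 1, 2 and 3, against 258, 287 and 407 RPKM in WT replicates 1, 2 and 3. The granzyme gene Gzma made up most of that sum, at 74.4, 57.7 and 107 RPKM in DTR replicates 1, 2 and 3. In WT replicates 1, 2 and 3 Gzma stood at 167, 189 and 274 RPKM, so the sum mainly describes this gene. The DTR library with the least Hopx, replicate 2, also had the lowest T cell sum, whereas DTR replicate 1 had Hopx within the WT range and a T cell sum below it. Among the WT libraries the order was the opposite. WT replicate 1 had the most Hopx (33.3 RPKM) and the lowest T cell sum, and WT replicate 3 the least Hopx (22.4 RPKM) and the highest sum. Of the 10 T cell markers 7 fell, including Nkg7 (-2.15), Cd3d (-1.81) and Trac (-2.64), of which Cd3d and Trac did not pass without WT replicate 1, 2 or 3 (limma adjusted p of 0.0605 to 0.0879). None of the tested markers of smooth muscle (7), interstitial cells of Cajal (3) or enteric neurons and glia (6) passed in limma with all libraries, although Ret did without DTR replicate 1 (0.82; adjusted p = 0.0344) and Elovl6 without DTR replicate 2 (-0.56; adjusted p = 0.0416). The fit without DTR replicate 1 called 36.0% of all tested genes. Neuron and glia markers summed to 3.92 to 8.48 RPKM in DTR and 3.23 to 4.05 RPKM in WT. Smooth muscle markers summed to 172 to 303 RPKM in DTR and 131 to 175 RPKM in WT. None of Actg2 (log2 change 0.89), Tagln (0.76) and Des (0.32), the smooth muscle genes with the smallest p, passed. Of the neuron and glia markers other than Ret, S100b had a log2 change of 0.51 and Tubb3 of 0.77. For interstitial cells of Cajal the defining receptor gene Kit stood at 0.849 to 0.995 RPKM in DTR and 0.593 to 0.743 RPKM in WT (0.49), and the chloride channel gene Ano1 at 0.539 to 0.849 RPKM in DTR and 0.598 to 1.03 RPKM in WT (-0.27). The sum of that list, 15.3 to 29.4 RPKM in DTR and 36.6 to 43.4 RPKM in WT, was almost all Elovl6 (13.7 to 27.7 RPKM in DTR and 34.7 to 41.6 RPKM in WT; log2 change -0.88), so it does not describe Kit or Ano1. Of 8 Paneth markers 6 fell, with sums of 592 to 759 RPKM in DTR and 2550 to 3936 RPKM in WT. They included Defa17 (log2 change -2.80), Mptx2 (-7.78) and Defa24 (-2.58), which passed in all 17 other settings. Mptx2 had 6, 2 and 16 reads in DTR replicates 1, 2 and 3 (mean log2 RPKM -3.03), and it passed the filter only through WT. Of 10 enterocyte markers 3 fell, Anpep (-1.66), Sis (-1.25) and Vil1 (-0.85), where 8.74% of all tested genes fell. Anpep passed in all 17 other settings, while Sis and Vil1 did not pass without WT replicate 1, 2 or 3 (limma adjusted p of 0.0750 to 0.142) or without DTR replicate 3 (0.0520 and 0.0818). Among these cell type lists, the tuft cytokine gene Il25 had 0 reads in all DTR libraries and 4, 10 and 14 reads in WT replicates 1, 2 and 3. The lymphatic transcription factor gene Foxc2 had 0 reads in all WT libraries and 6, 10 and 10 reads in DTR replicates 1, 2 and 3. Both lay below the expression filter, with few reads in either group.

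**Figure D5:**
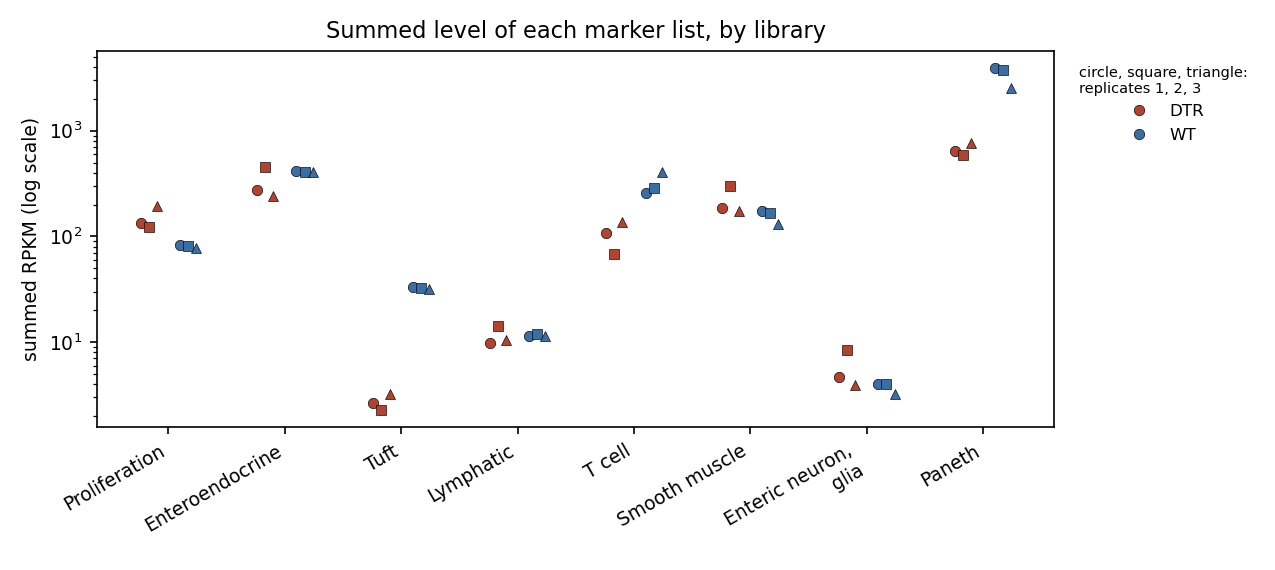
Summed RPKM (vertical axis, log scale) of the marker lists in each DTR and WT library; symbols are replicates. Tuft, T cell and Paneth sums lie lower in all 3 DTR libraries than in WT, proliferation sums lie higher, and lymphatic and enteroendocrine sums in DTR lie on either side of WT.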

How the data were processed

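RNA of whole small intestine from 3 DTR and 3 WT libraries was compared. RNA was taken from tissue in Trizol, per the labels. STAR, featureCounts and edgeR with build mm10 are named per the submitters' processing notes. The sources used here give no versions, annotation release or strand setting. The authors' deposited values are log2 RPKM with a small prior count, beside library totals, gene lengths and, for each library, the deposited ratio by which its total is scaled. The tables of genes above read depths were not used. Whole reads, within 1e-06, were recovered for 100% of values once a prior of 0.25 reads was taken off, and these gave the read numbers, RPKM values and the voom fit.

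A sample titled WT2 is described as WT1, so WT replicates 1 and 2 were matched by title. The labels do not say that libraries are separate mice, so a p-value here reflects spread among these libraries that may be technical. Replicates within groups differed by chi-square values of 94.3 to 537 per gene, so none looked like a repeat.

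Genes were tested two-sided on log2 RPKM in limma (version 3.58.1, under R 4.3.3), fitting a trend of variance on level, for genes with a mean above -2, adjusted by Benjamini-Hochberg over all of them; genes below the filter were fitted with all genes that had reads. The script was tested on simulated data. Exact permutation tests used differences of mean log2 RPKM. The markers and gene lists were chosen with earlier results of these data known. All 7 markers are named; in the other lists the up to 3 tested genes with the smallest p are named, with all relatives and ErbB receptors. A tuft marker that this rule also names is not reported here. Named outside this rule were Cdkn2a, Naf1, Hopxos, Gzma, the overlapping and undetected genes and the shelterin genes. Positions come from GENCODE M21, in which gene IDs and exon lengths of all 7 equal the deposited ones. The fit was repeated with array weights, voom, a robust prior or no trend, with quantile normalization or median centring, with the filter at 0 or absent, with pseudocounts of 0.1 and 1, with a replicate block, and without each library.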

Additional observations from a re-analysis of the deposited data

How the results depend on the processing

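The count of markers past the threshold was 0 in the main fit and in most other settings. It was 2 with array weights (Bmi1 and Lrig1), where 31.2% of all tested genes passed. As each library was left out it was between 0 and 3. The 3 (Bmi1, Lrig1 and Hopx) came without DTR replicate 1, where 36.0% of all tested genes passed. Over all genes, 2845 passed, against 4862 with array weights, 1161 with the replicate block and between 152 and 5605 as each library was left out. Library numbers did not pair the groups: deviations of same-numbered libraries correlated at -0.011, -0.0024 and 0.16, and 2 of 6 libraries correlated best with their own number. The replicate block left the marker count at 0. The sign of Tert turned with quantile normalization (0.051), that of Mex3b with a pseudocount of 1 (0.0090) and quantile normalization (0.030), and those of Cdkn2b (0.16) and Erbb3 (-0.0030) with array weights. As each library was left out, log2 changes crossed 0 for Lrig2 (-0.025 to 0.175), Mex3b (-0.57 to 0.19), Cdkn2b (-0.56 to 0.016), Erbb3 (-0.36 to 0.50) and Met (-0.0074 to 0.19). None of these values passed, and the cause was not tested. Of 578 comparisons of list counts, 476 stayed within 1.5 times the main count. Mex3a and Prox1, with 25 to 117 reads per library, could not be fitted with the filter at 0, nor could Msi1 and Tert.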
